A study of Drosophila melanogaster with 4 samples.

Results

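The nuclear genes for subunits of the mitochondrial respiratory chain and ATP synthase were followed in heads of adult fruit flies fed gabapentin or normal food. Members were chosen by gene symbol alone: every cDNA clone on the array whose single symbol, updated to the current one, starts with ND-, COX, UQCR- or ATPsyn, or is SdhA, SdhB, SdhC, SdhD, Cyt-c1, RFeSP or Cyt-c-p. This gave 45 clones of 38 genes among 13824 clones. Among the clones used here none carried the symbol SdhA, RFeSP or Cyt-c-p. By complex there were 21 clones for complex I, 5 for complex II, 2 for complex III, 6 for complex IV and 11 for complex V.

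All flies were unmated Oregon-R wild type males aged 10 to 11 days, held in vials of 30 on a cycle of light and dark. One condition received food with 16 mg/ml gabapentin for 3 days and the other normal food for the same 3 days. Gabapentin is a drug against seizures and neuropathic pain whose known target in mammals is an auxiliary (alpha2delta) subunit of calcium channels. RNA from pooled frozen heads of each condition was hybridised in pairs to 4 cDNA arrays with 2 colours, and each array was 1 biological replicate. The dyes were swapped between arrays: the gabapentin pool was the Cy5 sample of arrays 1 and 2, and the normal food pool that of arrays 3 and 4. A head pool mixes eye, brain, muscle, fat and cuticle, so fewer cells of a type and less RNA per cell cannot be told apart.

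The respiratory chain passes electrons from NADH, through complex I, and from succinate, through complex II, to complex III, cytochrome c and complex IV, where oxygen is reduced. Complexes I, III and IV pump protons across the inner mitochondrial membrane, and complex V, the ATP synthase, lets them flow back to make ATP. Neurons and photoreceptors spend much of this ATP on ion pumping. Most subunits are encoded in the nucleus, and among the clones used here none carried the symbol of a subunit encoded in the mitochondrial genome.

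Every value below is a deviation: the deposited log2 ratio of the dyes on an array minus the median of all clones with a value on that array. The labels do not state whether the ratios of arrays 3 and 4 are Cy5 over Cy3 or had already been turned to gabapentin over normal food. Deviations are therefore given as deposited, with no direction for gabapentin, and means of clones fitted over arrays in 2 readings. Means of complex medians over arrays are given as deposited only. In the turned reading arrays 3 and 4 change sign; in the deposited reading they do not. Between 668 (array 4) and 2170 clones (array 2) had a value on an array. Of a short list of markers, all 4 photoreceptor clones (trp, inaD, inaC and chp) had values on 3 or 4 arrays, as had 1 of 3 neuron clones and 3 of 4 muscle clones, and 0 of 4 testis clones had one on any array.

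Subunit genes passed the authors' spot filter more often than named clones in general. A value on at least 1 array was found for 25 of the 45 clones (55.6%), against 29.1% of the 7558 named clones. On 3 or 4 arrays, 10 subunit clones had one (22.2%), against 5.91%. These shares were not tested, and a missing value does not mean that a gene was silent, since spots were removed not only for low signal but also for saturation, flags or uneven pixels. On single arrays 14, 20, 12 and 9 of the 45 clones had a value on arrays 1 to 4, or 31.1%, 44.4%, 26.7% and 20.0%. Among named clones the shares were 14.6%, 16.9%, 10.4% and 5.15%.

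The complexes were covered unevenly. ATP synthase was best covered, with a value for 9 of 11 clones, followed by complex I with 12 of 21, complex III with 1 of 2 and complex II with 2 of 5. Complex IV, cytochrome c oxidase, had a value for 1 of 6 clones only, that of COX6AL. Its subunit genes COX4 and COX7A, the latter on 2 clones, had none, nor had COX6CL and COX7AL. COX6AL, COX6CL and COX7AL are among the paralogues described below, so the coverage of complex IV rests in part on such copies. In complex I no value was found for ND-75, the large iron-sulfur subunit that takes electrons onward from the NADH site, nor for ND-13A, ND-13B, ND-18, ND-19, ND-B8, ND-24L and ND-51L2. The membrane anchor SdhC of complex II, the small complex III subunit UQCR-6.4, ATPsynD of the stator stalk of ATP synthase and ATPsynGL completed the 16 genes with no value.

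**Figure D1:**
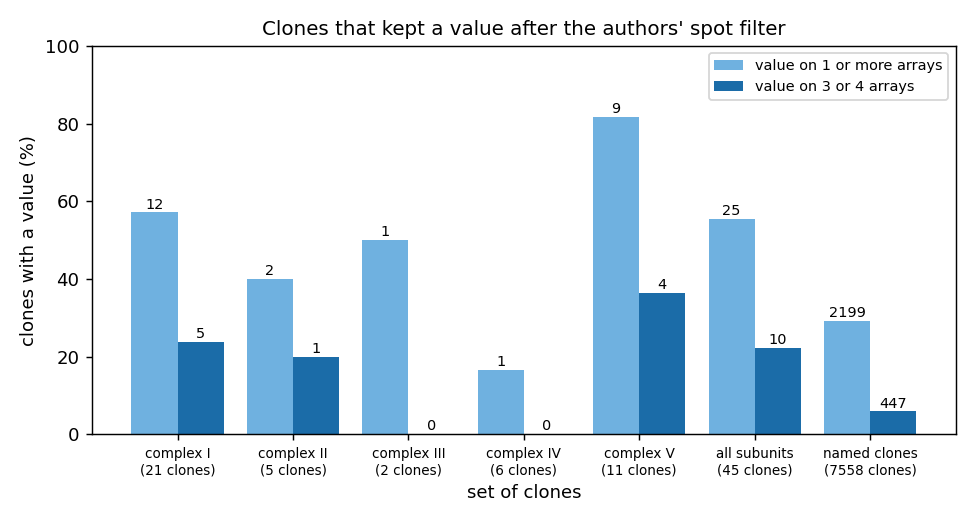
Bars give the percentage of clones with a value on at least 1 array (light) or on 3 or 4 arrays (dark) for each complex, for all 45 subunit clones and for the 7558 named clones; numbers above bars are clones. Complex V stands highest with 9 of 11 clones and complex IV lowest with 1 of 6.

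Some member genes are paralogues whose symbol ends in L or L2. In the fly many such copies of respiratory genes are known for expression in the testis. Of the 7 in the set, 5 had no value on any array and 2 had a value on 1 array each. COX6AL had -0.05 on array 1. ATPsynbetaL, the copy of the catalytic beta subunit, had -0.91 on array 2, the lowest deviation of any subunit clone. Its duplicate spots there gave -1.13 and -0.69. The share with a value, 28.6%, was near the 29.1% of all named clones, and that of the other 38 subunit clones was 60.5%.

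Complex I is the entry point for electrons from NADH and held 12 measured clones. ND-51, the subunit that binds NADH and the flavin cofactor, had -0.01, 0.37, 0.24 and -0.19 on arrays 1 to 4. Arrays 2 and 3 thus lay above the median and arrays 1 and 4 below it, and these pairs mix both dye orientations. Another clone of ND-51 had a value on array 2 alone, 0.10, where the first clone stood at 0.37.

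ND-20 is a core subunit that carries the last iron-sulfur cluster before ubiquinone. It had 0.05 on array 2 and 0.06 on array 3, so both measured arrays stood close to their medians. The remaining measured subunits of complex I are accessory ones that surround the core.

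ND-ASHI, an accessory subunit of the membrane arm, had the highest mean of the clones measured on 3 or 4 arrays as deposited, with 0.16, 0.37, 0.75 and -0.03 on arrays 1 to 4. Array 3 stood highest and array 4 lowest, although both carried gabapentin in Cy3. ND-B17.2, an accessory subunit that joins late in assembly in mammals, had 0.19, 0.09, 0.58 and 0.05. It was the 1 complex I clone on 4 arrays that lay above the median on all of them. Its duplicate spots on array 4 were at -0.02 and 0.13. ND-39, an accessory subunit beside the ubiquinone site, had 0.36, -0.23, 0.19 and -0.08, with each dye orientation split between above and below. ND-15 had -0.11, 0.20 and 0.02 on arrays 1 to 3 and no value on array 4.

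Complex I members measured on fewer arrays spread more widely. ND-B22 had the highest deviation of all subunit clones, 0.78 on array 3, its only array, with duplicate spots at 0.73 and 0.84. ND-SGDH stood at the other end. One of its clones had -0.47 on array 2 and -0.36 on array 3, and the other had -0.14 on array 2. These clones of the same gene thus lay on the same side of the median on the array they shared. The duplicate spots of the latter clone, at -0.33 and 0.06, lay on both sides of it. ND-42 had 0.28 on array 1 and 0.04 on array 2, and ND-B18 0.10 on array 2 and -0.12 on array 4.

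Complex II oxidises succinate and also belongs to the citrate cycle. SdhB, its iron-sulfur subunit, had 0.15, 0.20 and 0.08 on arrays 1 to 3, above the median on each, with an SD of 0.06 that was the smallest of any subunit clone on 3 or 4 arrays. SdhD, a membrane anchor, had 0.36 on array 2, while another SdhD clone had no value. In complex III, Cyt-c1, the haem subunit that hands electrons to cytochrome c, had 0.26 on array 1 alone. With 1 value each, complexes III and IV have no spread between replicates.

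ATP synthase consists of a catalytic head, a rotor, a stator stalk and a membrane part. Of the head, ATPsynbeta, the catalytic subunit, had 0.17 on array 1 and 0.24 on array 4, the highest of the 9 subunit clones on array 4. ATPsyngamma, the central shaft that turns within the head, had -0.71 on array 2 alone, with duplicate spots at -0.81 and -0.61. Of the stator stalk, ATPsynB had -0.02, 0.21 and -0.20 on arrays 2 to 4, and ATPsynO had -0.13 on array 1, from spots at -0.36 and 0.10.

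The membrane part was measured more often. ATPsynC, which forms the proton-carrying ring, had 0.23, 0.08 and 0.13 on arrays 1 to 3, above the median on each. Its duplicate spots on array 2 were at -0.09 and 0.25. ATPsynE, a small membrane subunit, had 0.23, 0.20, 0.22 and -0.12, so arrays 1 to 3 lay close together and array 4 stood apart. ATPsynG, also a small membrane subunit, had -0.0027, -0.26 and -0.23 on arrays 1, 2 and 4, at or below the median on each. A further ATPsynG clone had 0.09 on array 2, from spots at -0.05 and 0.22. Its value was on the other side of the median from the -0.26 of the first.

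**Figure D2:**
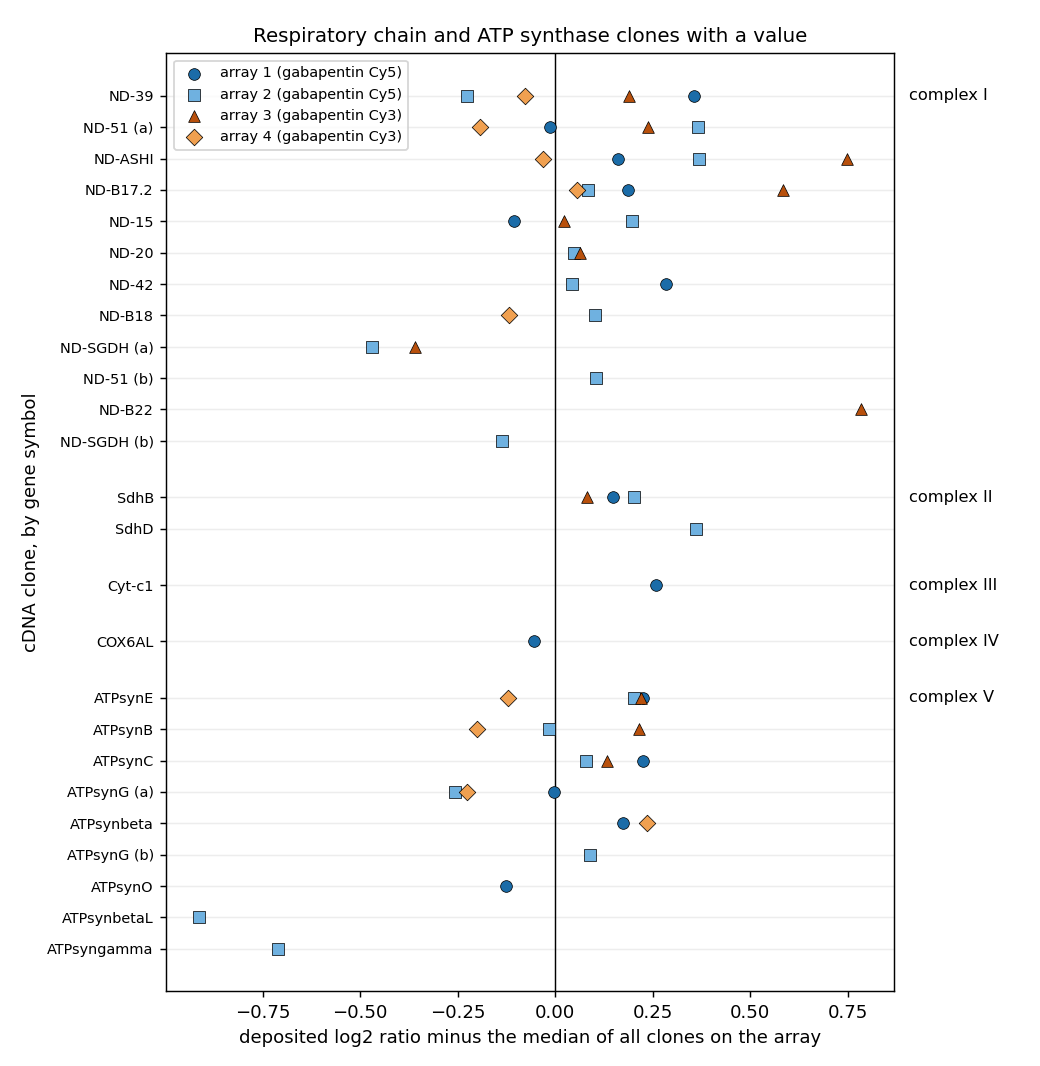
Each row is a clone with a value, grouped by complex, and each point is 1 array (x axis, log2 deviation from the array median; colours and shapes mark the array and the dye of gabapentin; the letters a and b mark separate clones of a gene). Most points lie between -0.3 and 0.4, with ND-B22 and ND-ASHI highest on array 3 and ATPsynbetaL and ATPsyngamma lowest on array 2.

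Complexes I and V, the pair with values on all arrays, stood on the same side of the array median on arrays 1, 3 and 4 and on opposite sides on array 2. Over the clones with a value the complex I median was 0.17, 0.09, 0.21 and -0.08 on arrays 1 to 4. The ATP synthase median was 0.17, -0.02, 0.21 and -0.16. As deposited, the difference, complex I minus complex V, was 0.0002, 0.10, -0.0005 and 0.08, a mean of 0.05 ± 0.05 (SD, n = 4 arrays). It was not tested, and single arrays move the complex means: without array 4 they are 0.16 for complex I and 0.12 for complex V, and without array 3, 0.06 and -0.0013. On array 2, where it was greatest, ATPsynbetaL, ATPsyngamma and 1 of the ATPsynG clones were the lowest of the ATP synthase values. Each complex varied more between arrays than the complexes differed, with means of 0.10 ± 0.13 for complex I and 0.05 ± 0.17 for complex V (SD, n = 4). Complex II had medians of 0.15, 0.28 and 0.08 on arrays 1 to 3, a mean of 0.17 ± 0.10 (SD, n = 3). All these means over arrays are as deposited and depend on that reading. In the turned reading the means of the tested clones had a median of 0.0050 for complex I (5 clones). For complex V (4 clones) it was 0.02.

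Against the array median, the subunits stood high on array 3 and low on array 4, although these arrays carried the dyes in the same orientation. On array 3, 11 of 12 subunit clones lay above the median, with a subunit median of 0.20, and ND-SGDH was the exception. On array 4, 7 of 9 lay below it, with a subunit median of -0.12, and ND-B17.2 and ATPsynbeta were the exceptions. The wider set of 854 clones with a value on 3 or 4 arrays was above the median on both, at 0.15 on array 3 and 0.10 on array 4, with 65.0% and 62.0% of these clones above. For subunit clones on 3 or 4 arrays, the median minus that of the 854 was 0.08, 0.06, 0.06 and -0.22 on arrays 1 to 4. Against this matched set the subunits were thus no higher on array 3 than on arrays 1 and 2. Array 4 alone lay below it, which was not tested.

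Clones with a value on both arrays 3 and 4 can be compared directly, whichever reading holds. All 6 subunit clones there (ND-39, ND-51, ND-ASHI, ND-B17.2, ATPsynB and ATPsynE) were higher on array 3, by 0.27 to 0.78 and a median of 0.42. Among all 235 such clones 62.1% were higher on array 3, with a median of 0.17 and an SD of 0.52 across clones. This comparison was added after the values had been seen and was not tested. Arrays 1 and 2, of the other orientation, showed no common step: 6 of 10 subunit clones were higher on array 1 and 4 on array 2, with a median difference of 0.06. The step of 0.42 between replicate arrays 3 and 4 was larger than the difference between complexes I and V on any array.

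**Figure D3:**
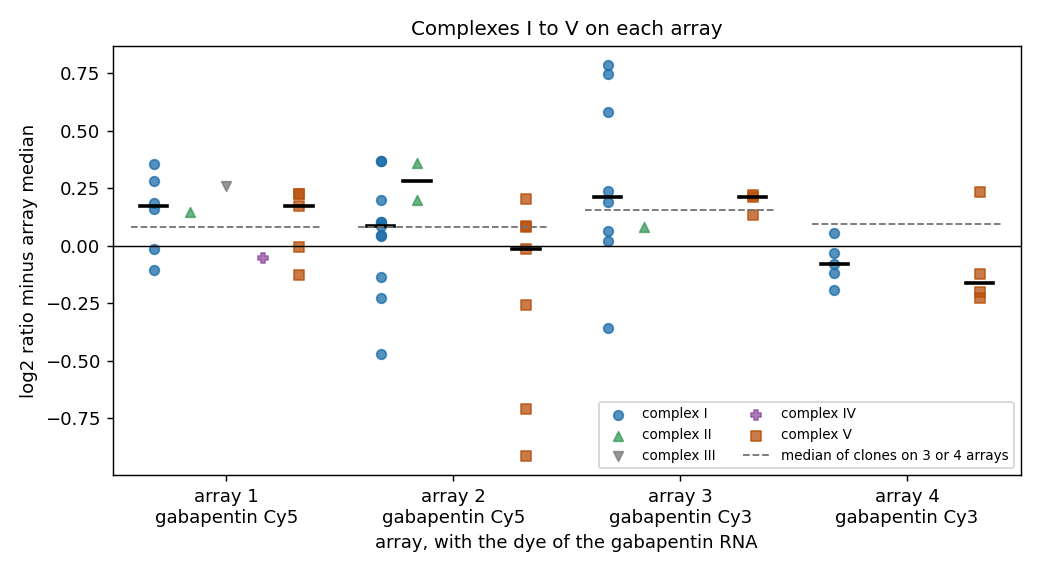
Points are clones, set out by complex and array (x axis, with the dye of gabapentin), against the log2 deviation from the array median (y axis). Black bars are complex medians where a complex has more than 1 clone, and dashed lines are medians of the 854 clones measured on 3 or 4 arrays. The medians of complexes I and V, over clones on any number of arrays, lie above the dashed line on array 3. On array 4 they lie below it. Single clones of both complexes lie on the other side.

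No subunit gene passed the test for a difference between gabapentin and normal food. The fit over all 854 clones on 3 or 4 arrays (limma, Benjamini-Hochberg adjusted p under 0.05) held 10 subunit clones, 5 of complex I, 1 of complex II and 4 of complex V. In the turned reading 0 of the 10 were called higher and 0 lower, against a background of 0% of the 854 clones. At an unadjusted p under 0.05 there were 0 of the 10, against 2.22% of all clones. In the deposited reading the adjusted count was again 0 of 10 against 0%, and at an unadjusted p under 0.05 it was 0 of 10 against 15.2%.

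In the turned reading the subunits lay close to 0. Their median was 0.01 (0.12 without array 3 and -0.0119 without array 1), with 6 means above and 4 below 0, beside a median of -0.0047 and 48.8% above 0 for all tested clones. The means ran from -0.09 for ND-B17.2 to 0.09 for SdhB, with SEs of 0.15 to 0.18. Between these lay ATPsynE at 0.08, ND-51 at 0.08, ATPsynC at 0.06, ND-15 at 0.02, ND-39 at 0.0050, ATPsynB at -0.0092, ATPsynG at -0.01 and ND-ASHI at -0.05. The limma adjusted p was 0.999 for each of the 10.

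The 95% intervals limit the size of a deviation from the array median in that reading. A shift common to all clones is outside them. Over the 10 subunit clones they reached from -0.45, the lower bound of ND-B17.2, to 0.47, the upper bound of SdhB. Those outermost bounds stand for a level 1.36-fold lower and 1.39-fold higher. They come from different clones, and the interval of each clone alone was narrower than this range, such as ND-39 from -0.33 to 0.34. In the deposited reading the outermost bounds were -0.48 for ATPsynG and 0.62 for ND-ASHI, or 1.39-fold lower and 1.54-fold higher. None of the 10 clones kept 1 sign on every turned array, beside 7.73% of all tested clones above and 6.79% below the median on each.

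In the deposited reading the subunits lay a little above 0, as did the tested clones in general. Their median was 0.12, with 8 means above and 2 below 0, beside a median of 0.09 and 66.7% above 0 for all 854 clones. The 5 complex I means were all positive, from 0.04 to 0.31, and the 4 complex V means ran from -0.16 to 0.15. ND-ASHI had the highest mean, 0.31 ± 0.14 (SE, n = 4 arrays, above the median on 3 of 4), with a 95% interval from -0.0011 to 0.62 and a limma adjusted p of 0.331. ND-B17.2 followed at 0.23 ± 0.13 (SE, n = 4, above on 4 of 4, limma adjusted p = 0.447). ATPsynG was lowest at -0.16 ± 0.14 (SE, n = 3, limma adjusted p = 0.626). Above the median on every measured array lay 3 of the 10 (ND-B17.2, SdhB and ATPsynC), beside 25.8% of all tested clones. Below it on every measured array lay 1 of the 10 (ATPsynG, with -0.0027 on array 1), beside 6.09%. SdhB and ATPsynC had no value on array 4, where 6 of 7 tested subunit clones lay below the median. These shares, like those of the turned reading, are not matched for arrays: 5 of the 10 had 4 arrays, against 186 of the 854.

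**Figure D4:**
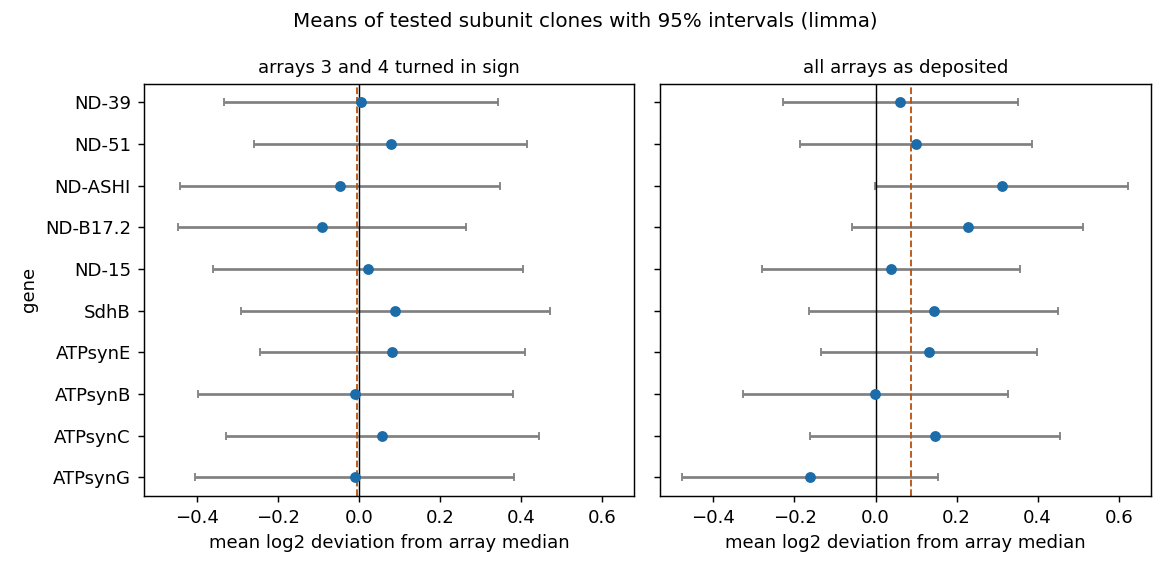
Points are limma means of the 10 tested subunit clones over the 4 arrays, with 95% intervals (x axis, log2 deviation from the array median), for arrays 3 and 4 turned in sign (left) and for all arrays as deposited (right). Dashed lines mark the median of all 854 tested clones, -0.0047 and 0.09; every interval includes 0.

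Without subtracting the array medians, the deposited reading called all 10 subunit clones higher, but it also called 97.5% of the 854 clones. The offset is thus common to nearly all tested transcripts, and the subunits share it. In the turned reading without this step, 0 of the 10 were called, against 0% of all clones.

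Few genes of the other lists of mitochondrial and linked metabolism were measured on enough arrays for a test. Of the citrate cycle and pyruvate dehydrogenase list 6 of 10 clones had a value, of the carriers 2 of 7, of the mitochondrial ribosome 14 of 54, of oxidant defence 3 of 4 and of assembly factors 1 of 6. Subunits outside the naming rule had 1 of 3, levy, a fly form of a complex IV subunit, at 0.13 on array 2. Over these lists 5 clones could be tested, and 0 of 5 passed in either reading, at an unadjusted p under 0.05 as well (limma, adjusted p of 0.999 for each in the turned reading and from 0.3997 to 0.962 in the deposited one).

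Those 5 genes gave a mixed picture beside the subunits. Mpcp2, the carrier that imports phosphate for ATP synthesis, had 0.24, 0.22 and 0.11 on arrays 1, 2 and 4, and was thus above the median on array 4, where most subunits were below. Mpc1, a subunit of the pyruvate carrier, stayed within 0.08 of the median, at -0.04, -0.08 and 0.01 on arrays 1 to 3. CG5214, a member of the citrate cycle list, had 0.16, 0.18, 0.58 and -0.34, high on array 3 and low on array 4 as most subunits were. Mdh1, the cytosolic malate dehydrogenase, had -0.09, -0.24 and 0.26 on arrays 1 to 3. mRpS24, a mitochondrial ribosomal protein, had 0.26, 0.09, 0.39 and 0.16, above the median on every array.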

How the data were processed

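The authors quantified spots with GenePix Pro 6.0 and normalized ratios in Acuity 4.0, per the series' design text. As that text also states, spots had to be unflagged, with fewer than 3% of pixels saturated, an R2 between the channels from 0.6 and signal-to-noise from 3; spots under 100 units and under 2 times the background did not enter the normalization. The deposited values were taken as log2 ratios, a base inferred from their largest size, 9.11, since 16-bit scans allow 4.82 in log10. With a floor of 100 units they allow 6.49 in natural log and 9.36 in log2. That floor is an assumption for the deposited spots, so a natural log is not excluded. The fold values rest on base 2. The target of the authors' centring is unknown.

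Rows that neighbour each other are duplicate spots and were averaged. Gene symbols are those of the platform's annotation, brought up to date by Entrez ID in RefSeq's table (14894 of 15116 spots matched). Each array's median over all clones was subtracted (1.14, 0.80, 0.52 and 0.78 on arrays 1 to 4). Clones on 3 or 4 arrays were fitted with limma 3.58.1 in R 4.3.3 (intercept, eBayes, Benjamini-Hochberg over 854 clones, threshold 0.05). The procedure was tried on simulated data with independent noise and changes larger than any subunit mean here. It was not tried on changes as small as those means. An SE is limma's moderated one. Summaries used Python 3.11.15 and pandas 2.3.3.

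All 4 arrays form 1 group. Members followed from the gene symbol rule alone. That rule and the other lists were set with earlier results of these data known. Any subunit could be named, with values on every array for those on 3 or 4 arrays; of other lists, genes on 3 or 4 arrays were. Subunit clones had both duplicate spots in all 55 cases, which differed by a median of 0.15. No sequences were used here.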

Additional observations from a re-analysis of the deposited data

Results flagged for a closer look

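Of 8 sets of values examined over the 4 arrays (the 5 subunit clones on all arrays and the medians of all subunits, complex I and complex V), 1 had an array far from the others. Chance gives about 1 in 20 for each set, so 1 flag among 8 sets can arise by chance. The sets also overlap, since the clones enter the medians. For ATPsynE the deviation on array 4 was -0.12, against 0.20 to 0.23 on the other arrays.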

How the results depend on the processing

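No subunit clone was called in either reading under any setting run except the deposited reading without centring, which called 10 of 10 subunit clones and 833 of 854 clones, with a subunit median of 0.92. Without centring the subunit median of the turned reading was 0.24. The count over all clones, 0 in both readings, was 11 in the turned and 46 in the deposited reading with a common and an orientation coefficient in 1 fit. In the deposited reading it was 3 when centred on the tested clones, 1 with arrays scaled to 1 spread and 1 with robust eBayes, and the cause was not tested. Leaving out 1 array in turn (clones of the main test kept) gave 0 to 11 calls in the turned reading, 11 without replicate 3, 2 without replicate 1 and 2 without replicate 2. It gave 0 to 13 in the deposited one, 13 without replicate 1, 4 without replicate 2 and 10 without replicate 3. None was a subunit.

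Means of single subunits in the turned reading changed sign in the deposited reading for ND-ASHI (0.31) and ND-B17.2 (0.23). Leaving out 1 array moved them from -0.115 to 0.0931 for ATPsynB, -0.0265 to 0.153 for ATPsynC, -0.13 to 0.11 for ATPsynG, -0.0641 to 0.0875 for ND-15, -0.112 to 0.0817 for ND-39, -0.019 to 0.182 for ND-51, -0.19 to 0.19 for ND-ASHI and -0.184 to 0.0722 for ND-B17.2, so no sign of theirs is settled. ATPsynE and SdhB stayed positive. The medians of complexes I, II and V, all as deposited, moved by less than their SD over arrays in every setting run. Those of complexes I and V still moved by over 1.5 times. Complex I moved from 0.10 to 0.06 without replicate 3 and 0.16 without replicate 4. Complex V moved from 0.05 to 0.0124 without replicate 1, -0.0013 without replicate 3 and 0.12 without replicate 4. As a mean over clones complex V was -0.0019. The subunit median of the turned reading, 0.01, ranged from -0.0119 without replicate 1 to 0.12 without replicate 3. Complexes III and IV, on 1 array, have no spread to judge by, and had no value without replicate 1 or on 2 or more arrays. The share of clones with a value was 22.2% on 3 or 4 arrays in place of 55.6% on any. No further pairing was possible, because all arrays form 1 group and the fitted ratio of each array already pairs both conditions. Depth is unknown, since no intensities were used, and the number of arrays limits precision.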
